A study of Homo sapiens with 6 samples.

Results

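A2M (alpha-2-macroglobulin) was examined in ABCB1-positive and ABCB1-negative fractions of OCM1A, a human cell line that the labels give as uveal melanoma, separated on a flow sorter. The gene was read by 1 of the 24526 probes on the Illumina bead array, ILMN_1745607, and 16922 genes had a named probe in all. Both fractions came from the same line in serum-supplemented medium, with no genetic change or drug named in the labels, and a commercial MDR1 shift assay defined them by their ABCB1. Per the design text the 6 arrays, 3 of each fraction, came from 3 independent assays. A2M was chosen because it was lower in the ABCB1-positive fraction, so its levels and its difference are described here without a test.

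A2M encodes a large secreted glycoprotein of blood plasma that inhibits proteases of every catalytic class. A protease that cuts its bait region springs a change of shape that traps the enzyme, and the complex is taken up by cells through the receptor LRP1. The same protein also carries growth factors and cytokines. The liver is its main source, and macrophages, fibroblasts and some tumour cells make it as well. ABCB1 (P-glycoprotein, MDR1) sits in the cell membrane and pumps out a wide range of drugs.

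In ABCB1-negative cells the A2M probe was well above background on every array. Its background-subtracted signal was 351 on negative replicate 1, 329 on replicate 2 and 317 on replicate 3, each with a detection p of 0, a value that ranks a probe against control beads. In ABCB1-positive cells the signal was 17.6 on replicate 1, 15.5 on replicate 2 and 23.7 on replicate 3. The 2 groups did not overlap, and every positive array lay far below every negative one. The mean was 332 ± 17.4 in negative and 18.9 ± 4.25 in positive cells (SD, n = 3 each), a ratio of 17.6 between the means.

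The positive signals lay at the edge of detection. Their detection p-values were 0.105, 0.0843 and 0.0497 for replicates 1, 2 and 3, so at the threshold of 0.05 used here A2M counted as detected on 1 of the 3 positive arrays, by a margin of 0.31 signal units. On positive replicates 1 and 2 it lay 11.9 and 8.32 units below the lowest detected signal of the array. At a threshold of 0.01 A2M was detected on 3 negative and 0 positive arrays. In the sorted populations as measured, fewer cells making A2M and less A2M RNA per cell cannot be told apart.

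**Figure D1:**
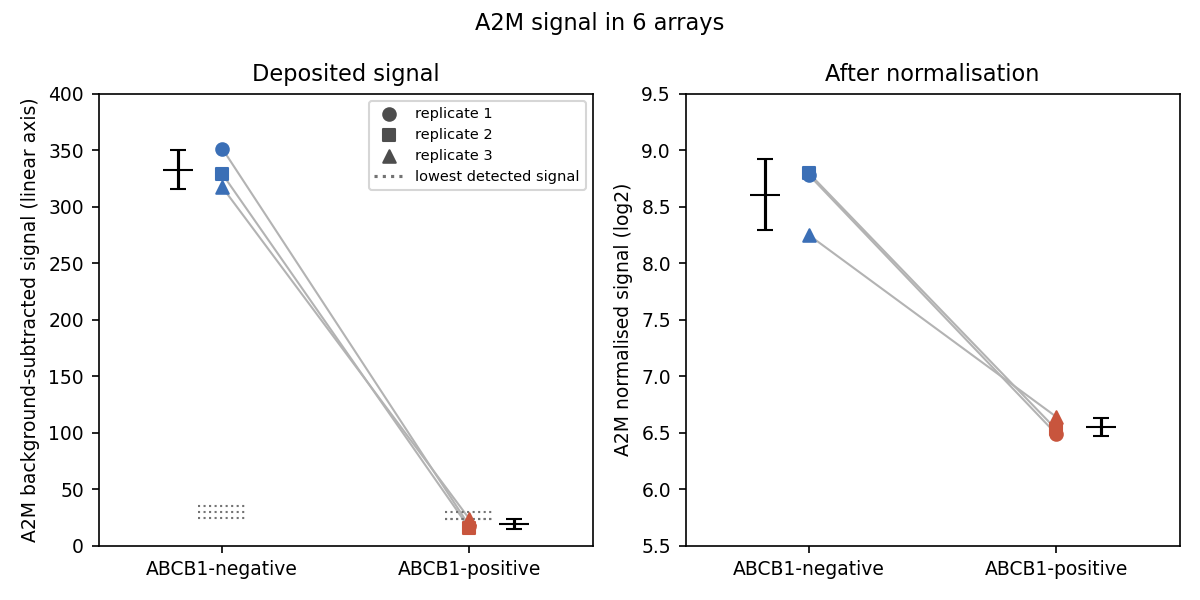
A2M signal on the 6 arrays, as deposited on a linear axis (left, with dotted marks at the lowest detected signal of each array) and after background correction and normalisation on a log2 axis (right). Symbols give the replicate number, grey lines join equal numbers, and black bars are the mean ± SD of 3 arrays; the negative arrays lie between 317 and 351 on the left and the positive arrays between 15.5 and 23.7.

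The negative arrays differed in overall brightness, with mean signals of 744, 670 and 958 for replicates 1 to 3, but the A2M signal did not follow it. Its coefficient of variation was 5.22% as deposited and 20.2% after the authors' scaling of each array to a common mean. On that scale negative replicates 1, 2 and 3 read 372, 386 and 261. Positive replicates 1, 2 and 3 read 15.5, 18.2 and 25.8, which was 4.57%, 5.36% and 7.60% of the negative mean. The ratio of negative to positive within each number was 24.0, 21.2 and 10.1. The first 2 of these ratios are over positive signals that did not count as detected, so their order is not resolved. Number 3 held the lowest scaled negative value.

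After normexp background correction with an offset of 50, which keeps dim probes from dominating on the log scale, and quantile normalisation, A2M read 8.78, 8.79 and 8.25 (log2) on the negative arrays. The positive arrays read 6.49, 6.53 and 6.64. The mean was 8.61 ± 0.31 in negative and 6.55 ± 0.08 in positive cells (SD, n = 3). The difference, positive minus negative, was -2.05 ± 0.17 (SE from limma), or 4.15-fold, and -2.29, -2.27 and -1.61 in pairs 1, 2 and 3. With the positive arrays at no less than the lowest detected value of their array, the difference was -1.95, or 3.86-fold. The size of the fold therefore depended on how the faint positive signals were treated. It was 3.86-fold at the detection floor, for example, and the mean scaled signals stood in a ratio of 17.1.

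**Figure D2:**
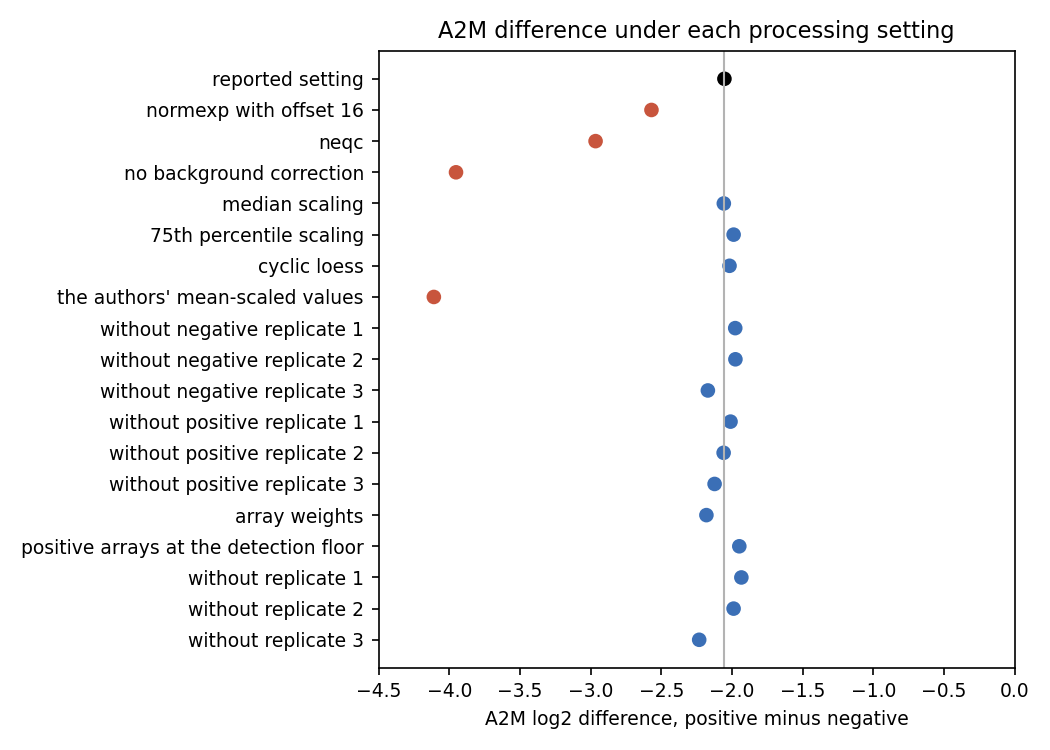
The A2M log2 difference, positive minus negative, under each processing setting (horizontal axis, log2), with the reported setting in black and the grey line. Settings within 0.31, the SD of the negative arrays, are blue and the others red; all values lay between -1.93 and -4.11, and the red ones changed only the background correction or used the authors' scaled values.

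The spread of A2M is not compared between the fractions, because the positive signals lie near the zero set by the background subtraction and the offset compresses them on the log2 scale. Over all 13186 tested probes the median SD was 0.17 in the negative and 0.21 in the positive arrays. Within the negative fraction A2M lay 0.36 below its group mean on replicate 3 and 0.17 and 0.19 above it on replicates 1 and 2. In the positive fraction the deviations were -0.06, -0.02 and 0.09, near background.

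The fractions were checked by ABCB1 itself. Its signal was 78.4, 71.95 and 99.0 on negative replicates 1 to 3 and 408, 514 and 188 on positive replicates 1 to 3. The groups did not overlap, and ABCB1 rose by 1.58 ± 0.27 (log2, SE) in the positive fraction (limma adjusted p = 0.0198, and 0.00198 with the replicate number as a block). Without the block, leaving out negative replicate 1, 2 or 3 or positive replicate 1 gave 0.0834, 0.0597, 0.0793 and 0.0889 (limma adjusted p). Positive replicate 3, with the lowest ABCB1 signal of the positive arrays, held their highest A2M signal; whether the purity of the sort took part in the A2M difference was not tested.

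A2M lies on chromosome 12 in RefSeq's GRCh38.p14 annotation, in a cluster with its relatives A2ML1 and PZP. The array table names no genome build, so no position is given. The 5 protein-coding genes on either side all had a probe. RIMKLB, PHC1, M6PR (a receptor that carries enzymes to lysosomes) and CLEC2D were detected on all 6 arrays. Their signals overlapped between the fractions, and their log2 differences were 0.07, 0.19, -0.25 and -0.35. By limma the adjusted p-values of these 4 were 0.882, 0.541, 0.487 and 0.433, and with the replicate number as a block 0.831, 0.253, 0.213 and 0.158. A2ML1, KLRG1, PZP, KLRB1, CLECL1 and CD69 were detected on no array. No call was thus made for any of these 10 neighbours, 4 tested and 6 undetected, which were picked by position after A2M was known to be low.

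Relatives of A2M share a reactive thioester or its fold and include complement proteins. Of the other 8 genes listed, 7 had a probe and 2 passed the filter for testing, which required detection on at least 3 of the 6 arrays. CD109, a membrane-anchored relative that binds TGF-beta, read 678, 855 and 781 on the negative and 695, 788 and 435 on the positive arrays. Complement C5 read 205, 97.4 and 422 on the negative and 289, 138 and 240.4 on the positive arrays. The groups overlapped for both genes. Neither was called by limma at an adjusted p under 0.05, with log2 differences of -0.13 ± 0.25 and 0.18 ± 0.28 (SE), and 0 of the 2 reached an unadjusted p under 0.05 with or without the block. Over all tested probes 678 were called, or 5.14%, and 2681, or 20.3%, with the block. PZP, the closest relative of A2M in sequence, gave between -4.64 and 9.85 signal units.

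Among receptors and their partners 5 of 5 genes had a probe and 3 were tested. HSPA5, the endoplasmic reticulum chaperone GRP78 that at the cell surface binds activated A2M, read 2331, 2040.3 and 2602 on the negative arrays. It read 1264, 1267 and 893 on the positive arrays, all below the negative ones. HSPA5 fell by 0.86 ± 0.17 on the log2 scale (SE, limma adjusted p = 0.0282; 0.00344 with the block). Without the block, leaving out any single array other than positive replicate 2 ended the call, with limma adjusted p-values from 0.0638 (negative replicate 3) to 0.134 (positive replicate 1). It was the 1 gene of the 3 called lower, and 0 were called higher, where 3.5% of all tested probes were called higher and 1.65% lower, or 11.1% and 9.21% with the block.

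LRP1, the endocytic receptor that clears A2M complexes, was faint in both fractions. Its signal was 25.6, 27.8 and 38.7 on the negative and 35.7, 39.6 and 32.3 on the positive arrays, with overlap as deposited. The log2 difference was 0.15 ± 0.12 (SE, limma adjusted p = 0.529). LRPAP1, the chaperone that keeps ligands off LRP1 during its synthesis, differed by 0.39 ± 0.15 (limma adjusted p = 0.18). On the normalised log2 scale LRP1 and LRPAP1 lay higher on all positive than on all negative arrays. The fractions did not overlap on that scale for 27.2% of all tested probes. At an unadjusted limma p under 0.05, LRPAP1 was higher and HSPA5 lower. LRP1B and LRP2 were detected on no array. The median over the 3 tested probes was 0.15, beside -0.02 over all tested probes.

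The listed proteases that A2M binds were mostly undetected in these cells. Of 15 listed genes 14 had a probe and 3 were tested, namely BMP1 (a procollagen-cleaving enzyme), MMP2 (a gelatinase) and MMP3 (stromelysin). BMP1 read between 231 and 308 on the negative and between 190 and 274 on the positive arrays. MMP2 and MMP3 stayed under 70 on all arrays. None of the 3 was called by limma with or without the block, and 0 reached an unadjusted p under 0.05. The median log2 difference was -0.06. ADAMTS4 and MMP1 were detected on 2 and 1 of the 6 arrays, and the other listed proteases with a probe on none.

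Among other protease inhibitors, SERPINE2, TFPI and TIMP2 were lower in ABCB1-positive cells, as A2M was. Of 20 listed genes 18 had a probe and 9 were tested. Limma called 3 lower and 0 higher without the block, and 6 lower and 1 higher with it; at an unadjusted p under 0.05 without the block 5 were lower and 1 higher. Over all tested probes 1.65% were called lower and 3.5% higher, or 9.21% and 11.1% with the block. The 1 higher gene of 9 with the block is near the 11.1%. These shares count probes, whereas a listed gene counted as called if any of its probes was. The median over the 12 tested probes was -0.80, beside -0.02 over all tested probes. Genes detected mainly in the negative fraction, such as SERPINA3, enter such a list because of the difference. The median, the count with the block and the count at an unadjusted p, which includes SERPINA3, are thus a description. No share over all tested probes was computed for the unadjusted count.

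SERPINE2 (protease nexin-1), a secreted inhibitor of thrombin and plasminogen activators, was bright in both fractions. It read 46501, 40007 and 45235 on the negative arrays and 28567, 20075 and 22471 on the positive arrays. All positive values lay below the negative ones, and in pairs 1, 2 and 3 the log2 differences were -0.97, -0.94 and -1.04. SERPINE2 fell by 0.98 ± 0.12 on the log2 scale, or 1.98-fold (SE, limma adjusted p = 0.00756; 0.0013 with the block). Without the block, leaving out negative replicate 1 gave a limma adjusted p of 0.0505.

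TFPI, which inhibits the tissue factor pathway of clotting, had 3 tested probes. ILMN_1707124 read 838, 650.2 and 1185 on the negative and 410.3, 283 and 379 on the positive arrays, with no overlap. That probe fell by 0.98 ± 0.14 on the log2 scale (SE, limma adjusted p = 0.0111, and 0.00144 with the block). ILMN_1662619 fell by 0.82 ± 0.16 (limma adjusted p = 0.0276, and 0.00234 with the block). Leaving out negative replicate 1 or 3 or positive replicate 1 ended both calls without the block (limma adjusted p of 0.054 to 0.127), and leaving out negative replicate 2 ended that of ILMN_1662619 (0.0578). The faintest TFPI probe, ILMN_1701032, was not called (-0.32 ± 0.20, limma adjusted p = 0.404).

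TIMP2, an inhibitor of matrix metalloproteinases, had 2 probes that disagreed. ILMN_1721876 read 4938, 4761 and 6999 on the negative and 3129, 2608 and 2923 on the positive arrays. It fell by 0.83 ± 0.13 on the log2 scale (SE, limma adjusted p = 0.0141, and 0.00235 with the block). Without the block, leaving out any negative array or positive replicate 1 gave limma adjusted p-values from 0.0546 (negative replicate 2) to 0.0809 (positive replicate 1). ILMN_1749078 overlapped between the fractions and differed by 0.25 ± 0.27 (limma adjusted p = 0.657). The related TIMP1 overlapped too, with a difference of 0.16 ± 0.28 (limma adjusted p = 0.786).

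SERPINA3 and TIMP3 were not called in the fit without the block as reported, but were with the block. They were also called without it under some other settings, for example with neqc (limma adjusted p of 0.0329 and 0.0492). SERPINA3 (alpha-1-antichymotrypsin, an acute-phase plasma inhibitor) read 333, 155 and 1476 on the negative arrays. On the positive arrays it read 14.7, -0.34 and 74.8 and was detected on 1 of 3. It passed the filter through the negative fraction, so its p-values are a description, and the size of its difference depends on the background correction. It differed by -2.30 ± 0.54 (log2, SE), with a limma adjusted p of 0.0528 without the block and 0.000607 with it. TIMP3, a matrix-bound metalloproteinase inhibitor, read 1572, 263 and 1181 on the negative and 166, 44.9 and 158 on the positive arrays. It differed by -2.10 ± 0.52 (log2, SE; limma adjusted p = 0.0626, and 0.00138 with the block). Both genes varied severalfold between negative arrays, while A2M did not.

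SERPINH1 (HSP47), a collagen chaperone of the serpin family that is not known to inhibit proteases, was also called lower with the block. Its log2 difference was -0.77 ± 0.41, with a limma adjusted p of 0.331 without the block and 0.00584 with it. CST3 (cystatin C), a secreted inhibitor of cathepsins, was the 1 gene called higher with the block. It differed by 0.64 ± 0.27 (limma adjusted p = 0.222, and 0.0426 with the block), and without number 3 the blocked limma adjusted p was 0.0831. SERPINA1, the antitrypsin gene, differed by 0.04 ± 0.12 (limma adjusted p = 0.891) by its only tested probe, ILMN_2338452. That probe was faint, between 25.2 and 44.4 signal units, and the other SERPINA1 probes were detected on no array.

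**Figure D3:**
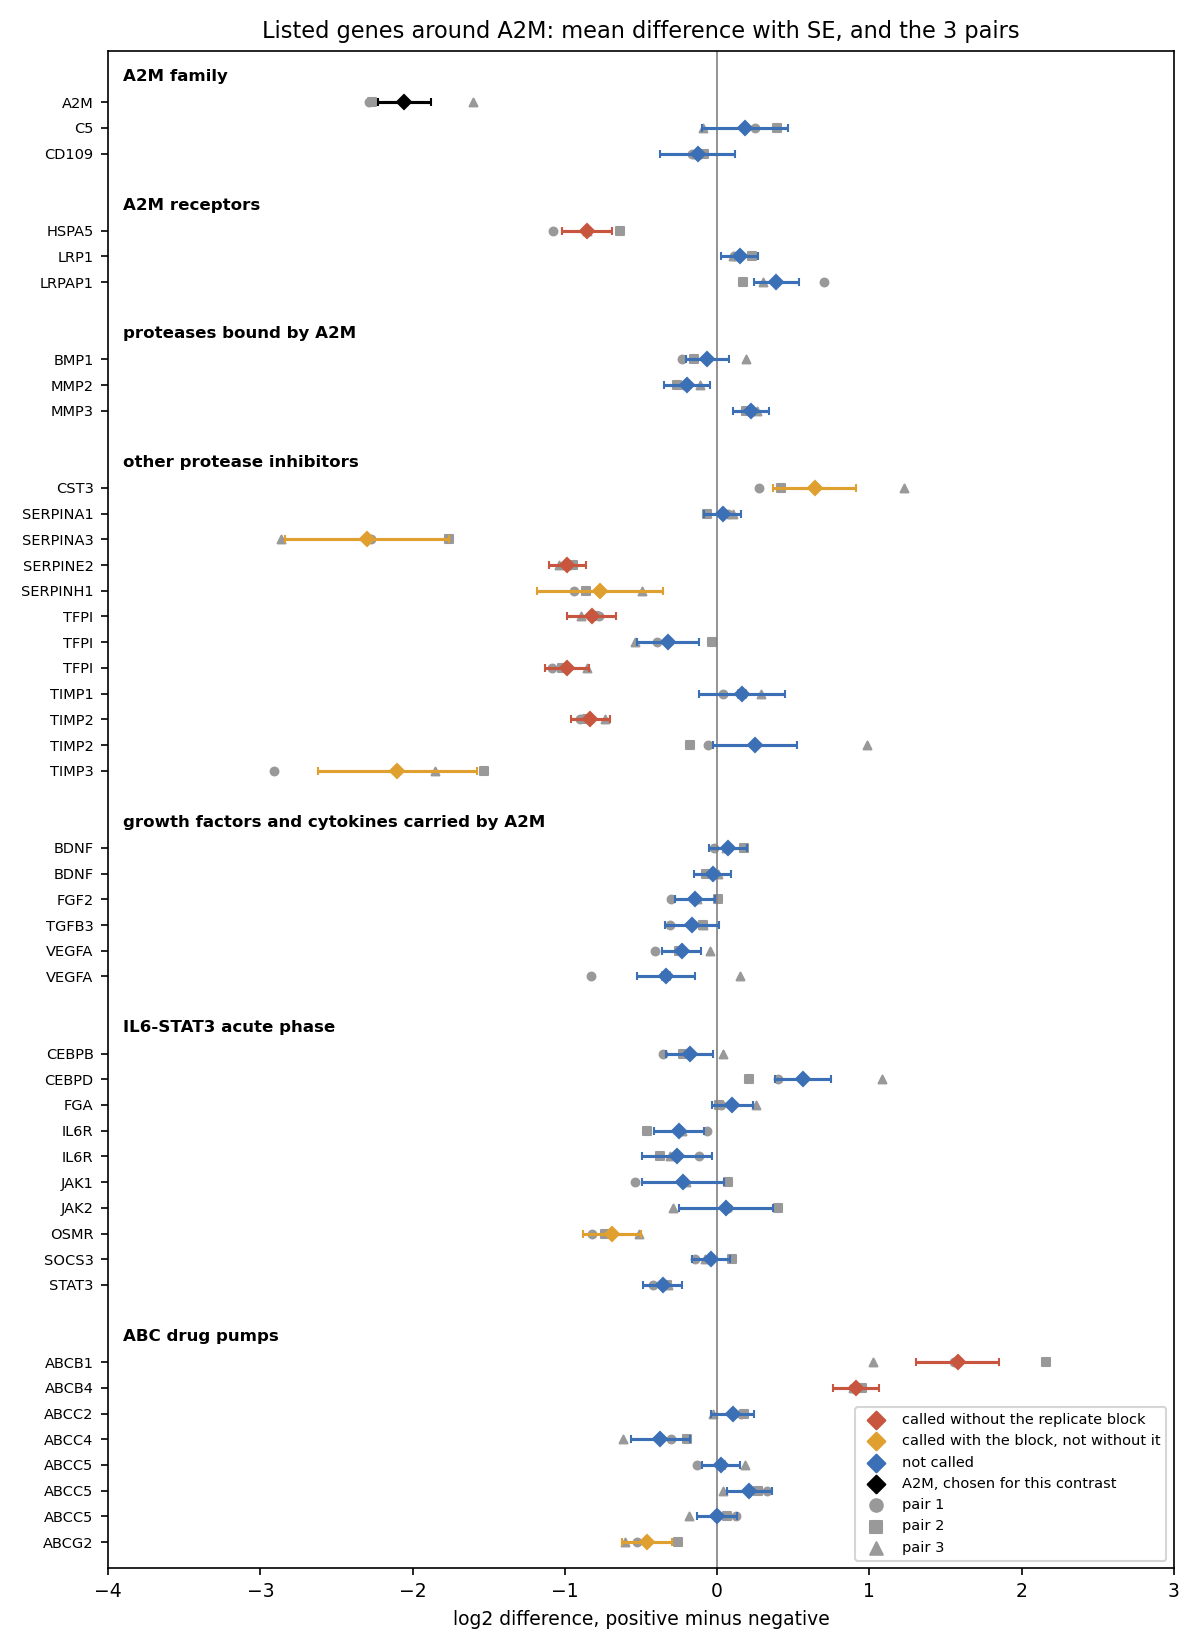
Log2 differences, positive minus negative (horizontal axis), for every tested probe of the 7 gene lists, with A2M in black for orientation. Diamonds with bars are the mean difference ± SE from limma without the block, grey symbols are the 3 pairs, and colours mark the call; among protease inhibitors SERPINE2, TFPI and TIMP2 were called lower without the block, and ABCB1 and ABCB4 were called higher.

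Most of the listed growth factors and cytokines that A2M can carry were faint or undetected. Of 12 listed genes 11 had a probe and 4 were tested: BDNF, FGF2, TGFB3 and VEGFA. VEGFA, the endothelial growth factor, was the brightest of them by its probe ILMN_2375879, with 299, 203 and 227 on the negative and 153, 138 and 162 on the positive arrays. Its groups did not overlap in signal, but the normalised log2 difference was -0.34 (limma adjusted p = 0.351). By limma 0 of the 4 genes were called with or without the block, and 0 reached an unadjusted p under 0.05. The median over 6 probes was -0.15.

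A2M is a classical acute-phase gene in the rat, where IL-6 acts on it through STAT3. In OCM1A cells IL6 itself was detected on no array. Of 21 listed genes of this pathway all 21 had a probe and 9 were tested. Without the block limma called 0, while 1 higher and 2 lower genes reached an unadjusted p under 0.05; with the block it called 1 lower, or 1 of 9, a share near the 9.21% of all tested probes called lower.

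The gene called with the block was OSMR, the receptor chain for oncostatin M, a cytokine related to IL-6. OSMR read 154, 145 and 117 on the negative and 60.8, 55.3 and 32.7 on the positive arrays, with no overlap. OSMR differed by -0.69 ± 0.19 (log2, SE), with a limma adjusted p of 0.0835 without and 0.00617 with the block. STAT3 read 1099.7, 996 and 1682 on the negative and 941, 765 and 841 on the positive arrays. The groups did not overlap, as for 27.2% of all tested probes on the log2 scale, where 12.3% were separated and lower in positive cells. The log2 difference of STAT3 was -0.36 ± 0.13 (limma adjusted p = 0.149, and 0.0511 with the block). SOCS3, the feedback inhibitor that STAT3 induces, differed by -0.04 (limma adjusted p = 0.882). CEBPD, the 1 higher gene at an unadjusted limma p under 0.05, went the other way and was not called. In positive cells CEBPD rose by 0.56 ± 0.18 on the log2 scale (limma adjusted p = 0.128, and 0.0517 with the block). The fractions did not overlap for CEBPD on that scale, though they did as deposited. The median of the pathway's 10 tested probes was -0.20.

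Drug pumps were listed because ABCB1 defined the fractions. Of 9 genes 7 had a probe and 6 were tested, and limma called 2 higher and 0 lower without the block, where 3.5% and 1.65% of all tested probes were called; 1 lower reached an unadjusted p under 0.05. Besides ABCB1, whose difference follows from the sort, these included ABCB4, the phospholipid transporter next to it on the same chromosome. ABCB4 read 149, 173 and 204 on the negative and 376, 375 and 285 on the positive arrays. The gene rose by 0.91 ± 0.15 (log2, SE, limma adjusted p = 0.0162, and 0.00158 with the block). In the fit without the block, leaving out negative replicate 1 or 3 or positive replicate 1 gave 0.0851, 0.0706 and 0.0713 (limma adjusted p). ABCG2, another drug exporter, read 68.1, 38.5 and 54.5 on the negative arrays. It was detected on 0 of the 3 positive arrays. With those arrays at their lowest detected value, ABCG2 was 1.22-fold lower there. The limma adjusted p without that floor was 0.156, and 0.0308 with the block. ABCG2 entered the test through the negative fraction alone, so these p-values are a description.

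The cells were checked by markers of the melanocyte lineage, which were not chosen to single out uveal melanoma. Of 10 melanocyte lineage genes 9 had a probe and 8 were detected on all 6 arrays, among them PMEL, MLANA, TYR, TYRP1, MITF and SOX10, while S100B was detected on none. Their summed scaled signal was between 71375 and 94903 in the negative and between 85667 and 100903 in the positive arrays. Limma called 1 of the 8 higher, SLC45A2 by 1 of its 3 probes (0.88 ± 0.17 on the log2 scale, adjusted p = 0.027), and 2 with the block, GPR143 being the other. The shares of all tested probes called higher were 3.5% and 11.1%, so these counts are not read as a result about the markers. For SLC45A2 without the block, leaving out any array but positive replicate 2 gave limma adjusted p-values from 0.0578 (negative replicate 2) to 0.125 (negative replicate 1).

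Markers of other cell types were undetected or, without the block, not called. All 4 hepatocyte markers and all 5 fibroblast markers were undetected on every array. Of 4 leukocyte markers with a probe, CD14 and CD68 were detected, PTPRC and CD3E were not, and the summed scaled signal of the list was between 695 and 1244 in negative and between 754 and 1275 in positive arrays. PECAM1 of 4 endothelial and EPCAM of 4 epithelial markers were detected on all arrays, and neither was called by limma. Of 3 pigment epithelium markers, BEST1 and RLBP1 were detected and RPE65 was not; RLBP1 was called higher with the block (limma adjusted p = 0.00349, and 0.248 without it, log2 difference 1.00 ± 0.45).

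The pattern of A2M over the 6 arrays was compared with that of other named probes whose difference was at least 1 on the log2 scale in either direction. There were 316 such probes, 139 lower and 177 higher in the positive fraction. The correlation with A2M, Pearson's r over 6 arrays, was at least 0.9 for 73 of them and at least 0.99 for 7. Because A2M and these probes differ between the fractions, most of r is that difference, and the arrays also share their replicate numbers. The correlations are given as a description.

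The 5 most alike were SORBS2, PRSS23, SLC35F1, P3H2 and RNF150, with r of 0.998, 0.997, 0.997, 0.993 and 0.992. The next probe had 0.992 as well, so the end of this list is not sharp. After removal of each fraction's mean, r with A2M over the 6 deviations was 0.94, 0.93, 0.89, 0.74 and 0.89 in the same order. At least 0.9 by that measure was reached by 128 of the tested probes. The largest A2M deviation was -0.36 on negative replicate 3, and its positive deviations were near background. This r therefore rests mainly on the negative arrays, above all on replicate 3.

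SORBS2, an adaptor protein of the actin cytoskeleton, read 182, 164 and 143 on the negative arrays and between -8.77 and -7.71 on the positive arrays, where it was detected on 0 of 3. With those positive arrays at their lowest detected value, SORBS2 was 2.26-fold lower there. PRSS23, a secreted serine protease, read 1405, 963 and 918 on the negative and 72.6, 55.8 and 81.8 on the positive arrays. SLC35F1, a solute carrier of little known function, read 1043, 805 and 870.0 on the negative and 62.3, 48.0 and 45.7 on the positive arrays. All 3 shared with A2M a lower normalised value on negative replicate 3 than on the other negative arrays. That array had the highest mean signal, 958. As deposited, SORBS2 and PRSS23 were lowest there among the negative arrays, while SLC35F1 was not.

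P3H2, which hydroxylates prolines of collagens, read between 4825 and 5862 on the negative and between 1829 and 2612 on the positive arrays. RNF150, a RING finger protein, read 1125, 901 and 602 on the negative and 33.0, 26.0 and 13.7 on the positive arrays. The log2 differences of PRSS23, SLC35F1, P3H2 and RNF150 were -2.88, -2.86, -1.18 and -3.18, and RNF150 was detected on 2 of the 3 positive arrays. They had been selected for a large difference, so no test of them is given.

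The most opposite patterns were those of ZNF280D, MRPL35 and ATOX1, with r of -0.988, -0.988 and -0.987. ATOX1, a copper chaperone, read 9901, 9046 and 13401 on the negative and 36204, 23450 and 28015 on the positive arrays. MRPL35, a protein of the mitochondrial ribosome, read between 2213 and 3684 on the negative and between 4531 and 6417 on the positive arrays. ZNF280D, a zinc finger protein, read between 352 and 701 and between 825 and 1099. Their log2 differences were 1.12 for ZNF280D, 1.09 for MRPL35 and 1.37 for ATOX1.

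**Figure D4:**
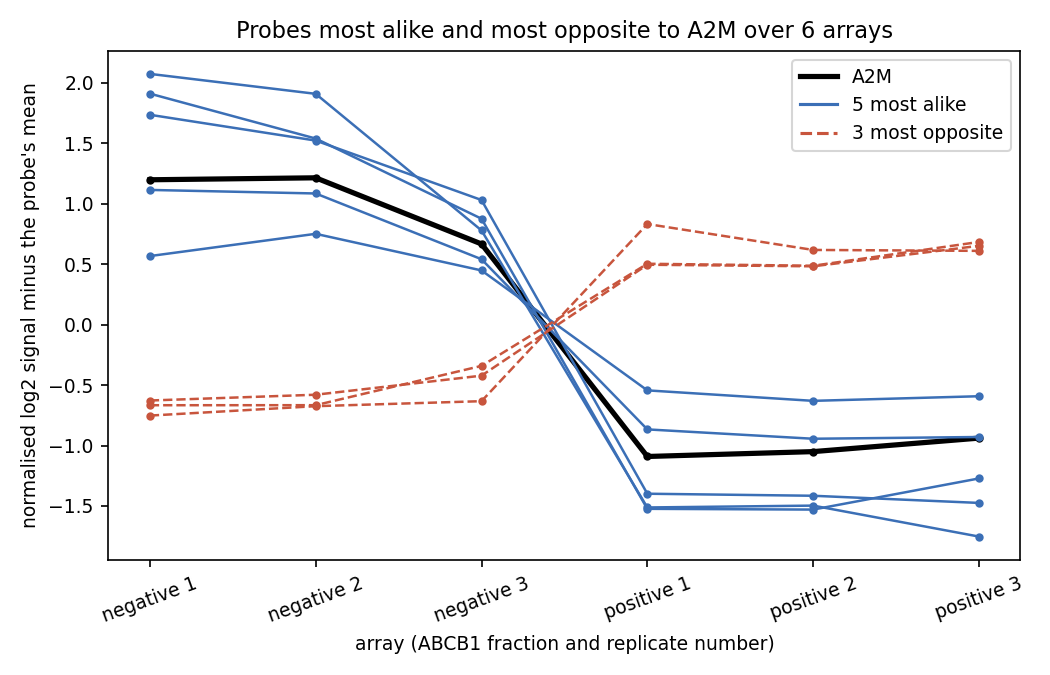
Normalised log2 signal minus each probe's mean over the 6 arrays (vertical axis) by array (horizontal axis), for A2M in black, the 5 most alike probes in blue and the 3 most opposite in dashed red. The lines join arrays only to guide the eye; A2M and the probes alike to it are high on the 3 negative arrays, lower on negative replicate 3 than on replicates 1 and 2, and low on the 3 positive arrays.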

How the data were processed

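The authors deposited signal intensity per probe, background-subtracted on a linear scale with values below 0, and detection p-values beside it, per the file headers. A second deposited table holds the same intensity values with every array scaled to a mean of 787. The scanner software is not given in the sources used here. Gene names came from GEO's platform annotation, which gave 21834 probes 1 gene symbol, 0 several and 2692 none. Signals were corrected by normexp with an offset of 50, quantile-normalised and put on the log2 scale from the deposited intensity (limma 3.58.1, R 4.3.3). Probes with a detection p under 0.05 on at least 3 of 6 arrays were tested, 13186 in all. The two-sided limma test (lmFit, then eBayes) compared the fractions, p-values were adjusted by Benjamini-Hochberg over every tested probe, and a call needed an adjusted p under 0.05. A gene was called if any probe was, whereas the shares over all tested probes count probes. On the log2 scale the fractions did not overlap for 27.2% of tested probes, so a lack of overlap is not read as a result. Detection covered 12846 to 13183 probes per array, and 3 arrays per group limit the precision. With 1 cell line, the p-values reflect variation among these assays and arrays only.

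The labels number samples 1 to 3 in each fraction. Deviations from the fraction means correlated across probes with r = 0.48, 0.64 and 0.48 for equal numbers. For unequal numbers r lay between -0.54 and 0.14. The numbers were thus taken to pair the samples, which the labels do not state. The reported fit and its SE leave the number out, and values with the number as a block stand beside results that they change. A2M and the lists were chosen with earlier results of these data known. The genes named are A2M, the called members of each list, ABCB1, LRP1 and STAT3, and the 5 probes most and 3 least like A2M by Pearson's r among named probes with a log2 difference of at least 1. List members called with the block but not without it, others without a call and the neighbours were named after their values were seen. The procedure was tested on simulated data. Alternatives covered the background correction, the scaling, the filter, array weights, the variance prior, the block and leaving out each sample, with the rest normalised again.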

Additional observations from a re-analysis of the deposited data

How the results depend on the processing

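The A2M difference kept its direction in every setting, which the separation of the groups nearly fixed. It was -2.05 as reported, -2.57 with an offset of 16, -2.96 with neqc, -3.95 with no background correction and -4.11 with the authors' mean-scaled values. It stayed within 0.31 of the reported value under the other scalings, array weights and the detection floor, and ranged from -1.93 to -2.23 with arrays left out. The 678 called probes (461 higher, 217 lower) became 383 with median scaling (229 and 154), 4601 with array weights (2326 and 2275) and 2681 with the replicate block (1467 and 1214), and the authors' scaled values gave 241 higher and 245 lower. Leaving out samples gave 83 (without positive replicate 1) to 1339 (without positive replicate 2) without the block, and 1554, 2927 and 2387 with the replicate block and number 1, 2 or 3 left out, a choice made after seeing the data, as were array weights and left-out numbers for A2M. Listed genes called numbered 6 as reported, 12 with the replicate block and 19 with array weights; leaving out samples gave 0 to 6 without the replicate block, and leaving out number 1, 2 or 3 gave 12, 14 and 10 with it. Without negative replicate 1 no listed gene passed, and without negative replicate 3 or positive replicate 1 only 1 did. Protease inhibitors called lower numbered 3 as reported, 6 with the replicate block, and 5 with offset 16, neqc, 75th percentile scaling, the stricter filter, array weights or the trend and robust prior; leaving out samples gave 0 to 4 without the replicate block and 5 to 6 with it. By Spearman's rho 0 of the 5 probes most like A2M reached 0.95, against 5 by Pearson's r. The 28 other probes followed were those most alike and opposite, called list and marker probes, and those of ABCB1, LRP1 and STAT3. Uncalled probes of other named genes were not followed. All kept their direction in 573 of 573 alternative fits, but most were picked for their difference in these same arrays, which nearly fixed it. Calls were lost in 37 of these fits and gained in 58. Without the replicate block the limma adjusted p of HSPA5 was 0.0588 with no background correction and 0.051 with the authors' scaled values, that of SERPINE2 0.0552 with the latter, and that of the TFPI probe ILMN_1662619 0.0626 with median scaling. The array weights stopped before they fully converged. The causes were not tested. Slide was not run as a block, because the table gives none. The size of the A2M difference is limited by its positive signals, which lie near background.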
